A study of Mus musculus with 19 samples.

Results

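A set of 10 genes that write, maintain or remove Polycomb and DNA methylation marks were followed in RNA-seq of B lineage cells: Ezh2, Suz12, Eed, Dnmt1, Uhrf1, Dnmt3a, Dnmt3b, Tet2, Tet3 and Kmt2d. They were chosen by name, and all 10 are listed among the 17939 genes of the germinal centre table and the 19397 kept in each of the other 3 tables. The cells were sorted on day 28 from mice immunized intraperitoneally with washed sheep red blood cells (SRBC), a particulate antigen that raises germinal centre and antibody responses. The 19 libraries fall into 6 groups. From spleen came germinal centre B cells gated CD95+ and GL7+, 4 libraries with the genotype label Pik3cg knockout and 3 labelled wild type, and naive B cells gated CD3-, B220+ and IgD+, 3 labelled knockout and 3 labelled wild type. Antibody-secreting cells gated CD138+, all labelled wild type, came from spleen (3 libraries) and bone marrow (3 libraries). Pik3cg encodes p110γ, a catalytic subunit of phosphoinositide 3-kinase. The series design names 3 wild-type and 4 knockout mice. The sources used here do not say how the allele was made, which exons it removes, the strain or age of the mice, or which libraries share a mouse, so the p-values below measure the spread between libraries, which may be technical.

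Polycomb repressive complex 2 (PRC2) places methyl groups on lysine 27 of histone H3 at silenced genes: EZH2 or its paralogue EZH1 carries the catalytic site, SUZ12 is the scaffold, and EED binds the mark and stimulates the enzyme. DNA methylation is copied onto new strands by DNMT1, which UHRF1 brings to hemimethylated DNA, while DNMT3A and DNMT3B methylate unmodified sites and TET2 and TET3 oxidise methylcytosine. KMT2D methylates histone H3 on lysine 4 at enhancers. These enzymes have been studied closely in germinal centre B cells, because EZH2, KMT2D and TET2 are recurrently mutated in lymphomas that arise from them and because EZH2 is needed for germinal centres to form.

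Values are counts per 1000000 reads assigned to genes (CPM), and depth, taken from the CPM that 1 read is worth, ran from 10.2 to 21.6 M reads (M for 1000000) per library. At that depth 3 reads, used as a floor, correspond to 0.139 to 0.293 CPM, which covers counting error only. Pik3cg itself did not separate the genotype labels: it stood at 66.0, 52.8, 6.55 and 9.04 CPM in the germinal centre libraries with the knockout label and at 56.5, 34.3 and 19.4 CPM with the wild-type label, and at 94.98 to 127 against 110 to 115 CPM in naive B cells. In the naive and antibody-secreting tables a line above the column names heads the 9 wild-type columns HET. The groups are therefore called by their labels throughout. Of 10 germinal centre markers, Rgs13, Gcsam and S1pr2 were at 0 in all 3 germinal centre libraries labelled wild type, and the sum of the list was 310 to 381.1 CPM there against 2670 to 3393 CPM in those labelled knockout and 137 to 225 CPM in naive B cells. Those libraries held Fas, which encodes the gated CD95, at 197 to 226 CPM and Mki67, a gene of dividing cells, at 197 to 393 CPM. Bcl6, the regulator that defines germinal centre B cells, was at 0.41 to 1.62 CPM in them, below the 2.40 to 12.1 CPM of naive B cells and the 26.3 to 45.5 CPM under the knockout label. Fcer2a, a marker of naive and follicular B cells, was at 1525 to 2439 CPM in them, above naive B cells (1064 to 1388 CPM), and at 43.0 to 82.1 CPM under the knockout label. Of the 10 naive B cell markers that include Fcer2a, 3 rose and 2 fell with the knockout label (8.54% and 5.09% of all genes). Their sum was 4568 to 6192 CPM under the wild-type label and 4982.5 to 5406 CPM under the knockout label. Naive B cells held 14553 to 15712 CPM, above both. The germinal centre marker sum and Bcl6 go against the label of the libraries labelled wild type, which are called germinal centre by their sort alone. Labelled wild-type replicate 3 held no Xist and held the Y-linked Ddx3y (159 CPM) and Eif2s3y (59.4 CPM), while the other 6 germinal centre libraries held Xist and neither of these. The germinal centre libraries also differed in RNA of other cells. Sums of 20 T cell markers were 1746 to 3526 CPM under the knockout label, where 14 of the 18 tested rose, and 115 to 201 CPM under the wild-type label, where 9 to 13 of the 20 were at 0 in a library, Cd3d, Cd3e, Cd3g, Trbc2 and Cd4 in all 3. In the same order of labels, 6 erythroid markers summed to 29.7 to 2978 and 0.1 to 2.4 CPM, and 16 monocyte and macrophage markers to 783 to 3605 and 1109 to 1499 CPM, with Lyz2, Csf1r and C1qa at 0 in all 3 libraries under the wild-type label. The part of those cells' RNA in the differences below was not tested, and fewer cells of a type cannot be told apart from less RNA per cell.

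Promoter windows are shown for Ezh2, Suz12 and Uhrf1, which were high in germinal centre B cells, and for contrast Tet2, whose levels overlapped between germinal centre and naive B cells. RefSeq (GRCm38.p6) gave 15 windows of 250 bases before a transcript start for the 10 genes. Capitals mark E2F letters (TTTCCCGC, TTTCGCGC, TTTGCCGC or TTTGGCGC) and CCAAT letters, each on either strand. Only bases that GENCODE M21 places in no exon of the 10 genes are printed, and exons of other genes were not checked.
Ezh2, chr6:47595059-47595183, minus strand, within the gene's span, from 153 to 29 bases before the start: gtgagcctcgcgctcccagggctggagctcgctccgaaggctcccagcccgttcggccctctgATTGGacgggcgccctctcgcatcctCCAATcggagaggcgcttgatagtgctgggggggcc
Suz12, chr11:79992856-79993105, plus strand, upstream of the gene: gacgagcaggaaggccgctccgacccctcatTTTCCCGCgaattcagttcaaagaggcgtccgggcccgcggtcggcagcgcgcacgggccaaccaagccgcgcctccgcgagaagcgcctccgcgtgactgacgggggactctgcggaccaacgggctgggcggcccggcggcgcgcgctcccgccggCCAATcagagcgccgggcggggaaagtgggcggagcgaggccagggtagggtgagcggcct
Uhrf1, the second of its 2 windows, chr17:56304063-56304312, plus strand, within the gene's span: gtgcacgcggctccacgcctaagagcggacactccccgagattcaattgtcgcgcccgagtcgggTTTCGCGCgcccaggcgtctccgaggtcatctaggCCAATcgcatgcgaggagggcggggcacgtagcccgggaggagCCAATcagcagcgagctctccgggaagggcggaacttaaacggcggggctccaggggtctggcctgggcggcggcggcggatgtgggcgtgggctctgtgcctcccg
Tet2, chr3:133544391-133544640, minus strand, within the gene's span: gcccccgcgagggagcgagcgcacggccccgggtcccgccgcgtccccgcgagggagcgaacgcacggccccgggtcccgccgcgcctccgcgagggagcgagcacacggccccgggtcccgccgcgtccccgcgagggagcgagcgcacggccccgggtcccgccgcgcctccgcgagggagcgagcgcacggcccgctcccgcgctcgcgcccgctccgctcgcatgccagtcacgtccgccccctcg

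In GENCODE M21 (GRCm38) the Polycomb subunits lie apart in the genome, Ezh2 at chr6:47530139-47595341 (minus strand), Suz12 at chr11:79993106-80034123 (plus strand) and Eed at chr7:89954654-89980983 (minus strand). The maintenance pair is Dnmt1 at chr9:20907209-20959888 (minus strand) and Uhrf1 at chr17:56303321-56323486 (plus strand), and the de novo enzymes are Dnmt3a at chr12:3806007-3914443 (plus strand) and Dnmt3b at chr2:153649450-153687730 (plus strand). The others are Tet2 at chr3:133463679-133545139 (minus strand), Tet3 at chr6:83362373-83459084 (minus strand) and Kmt2d at chr15:98831669-98871204 (minus strand).

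E2F letters are rare: 1.86% of 32851 mouse promoter windows hold them. They were found in 3 of the 15 windows, those of Suz12 (beginning 219 bases before the start), the second of Uhrf1 (185 bases) and the third of Dnmt1 (219 bases, in bases that are exon in another transcript and are not printed). CCAAT letters occur in 33.8% of windows and in 7 of the 15, of Ezh2, Suz12, Dnmt1, Uhrf1 and Tet3. The Ezh2 window holds 3 CCAAT matches, 1 of them in exonic bases that are not printed. CHR letters (TTTGAA or TTCGAA, either strand) occur in 17.1% of windows and in 4 of the 15, of Suz12, Eed, Dnmt1 and Dnmt3b. The windows of Dnmt3a, Tet2 and Kmt2d hold no match to any of these letters. Tet2 has the most CpG dinucleotides of the 15 windows, 51 in 250 bases against a median of 6 over all windows, followed by Dnmt3a with 40 and 38, Suz12 with 37 and Uhrf1 with 30. Matches of different kinds do not overlap each other. A match describes letters only, not binding.

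The core subunits of PRC2 were far higher in germinal centre B cells than in naive B cells, and Ezh2, the catalytic subunit, differed most. Ezh2 was at 169, 114, 178 and 242 CPM in the germinal centre libraries with the knockout label and at 169, 101 and 139 CPM with the wild-type label. In naive B cells it was at 1.95, 6.39 and 2.98 CPM with the knockout label and at 6.28, 7.03 and 6.33 CPM with the wild-type label. All 7 germinal centre libraries lay above all 6 naive libraries, with a ratio of means of 30.8. Antibody-secreting cells held 0.62, 2.52 and 1.58 CPM in spleen and 2.25, 1.3 and 5.56 CPM in bone marrow, which overlaps the naive range.

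Eed, the subunit that binds the methyl mark, was the most abundant of the 10 per length of exon in both germinal centre groups. It was at 252, 245, 246.4 and 289 CPM in the germinal centre libraries with the knockout label and at 270, 156 and 257 CPM with the wild-type label. Naive B cells held 24.6, 36.3 and 29.1 CPM with the knockout label and 21.2, 27.4 and 19.4 CPM with the wild-type label, a ratio of germinal centre to naive means of 9.30 with no overlap. In antibody-secreting cells Eed was lower again, at 2.62 to 5.72 CPM in spleen and 1.62 to 7.61 CPM in bone marrow.

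Suz12, the scaffold, was less sharply divided. It was at 194, 89.0, 117 and 97.2 CPM in the germinal centre libraries with the knockout label and at 129, 89.7 and 85.7 CPM with the wild-type label. Naive B cells held 58.3, 43.8 and 44.0 CPM with the knockout label and 36.3, 20.2 and 25.1 CPM with the wild-type label. The ratio of germinal centre to naive means was 3.02, without overlap, and antibody-secreting cells were lowest, at 4.70 to 14.2 CPM.

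**Figure D1:**
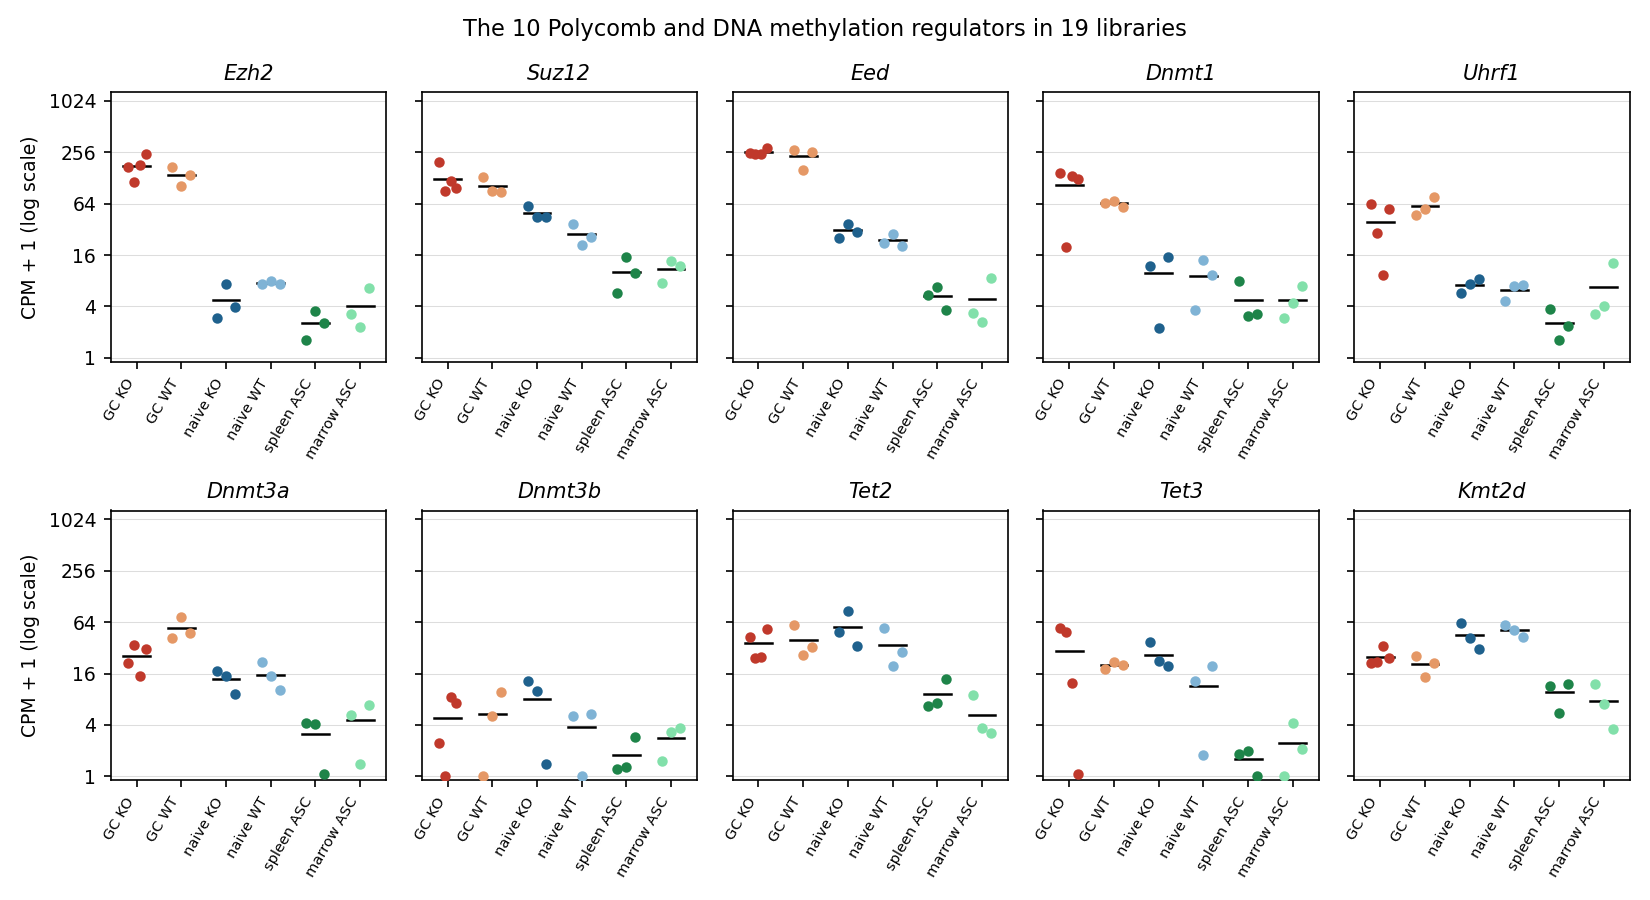
Level of each of the 10 genes in each of the 19 libraries, as CPM + 1 on a log scale, by group of libraries: points are libraries and bars are group means. KO and WT are the genotype labels, GC is germinal centre and ASC antibody-secreting cell. Ezh2 lies at 101 to 242 CPM in the 7 germinal centre libraries and at 1.95 to 7.03 CPM in the 6 naive libraries, and Dnmt3b lies at or under 12.0 CPM in every library.

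The maintenance pair of DNA methylation followed the same division. Dnmt1, the maintenance methyltransferase, was at 144, 18.9, 132 and 122 CPM in the germinal centre libraries with the knockout label and at 64.9, 68.4 and 58.2 CPM with the wild-type label. Replicate 2 of the labelled-knockout group stood apart at 18.9 CPM, still above the highest naive library (14.1 CPM). Naive B cells held 1.26 to 14.1 CPM and antibody-secreting cells 1.96 to 7.04 CPM, and the ratio of germinal centre to naive means was 10.4.

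Uhrf1, which brings DNMT1 to hemimethylated sites, was at 61.6, 28.4, 8.38 and 54.5 CPM in the germinal centre libraries with the knockout label and at 46.2, 54.6 and 74.7 CPM with the wild-type label. The labelled-knockout libraries ran wider than the labelled wild-type ones, and the lowest of them (8.38 CPM) was close to the highest naive library (7.44 CPM). The ratio of germinal centre to naive means was 8.19. In antibody-secreting cells Uhrf1 was at 0.61 to 2.69 CPM in spleen and at 2.25, 3.00 and 11.8 CPM in bone marrow, so that 1 bone marrow library exceeded every naive library.

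Of the 10 genes, then, Ezh2, Suz12, Eed, Dnmt1 and Uhrf1 were higher in all 7 germinal centre libraries than in all 6 naive libraries, and none was lower throughout. Over the 8870 genes whose mean reached 10 CPM in these libraries, 9 of the 10 among them (not Dnmt3b), 15.8% were higher in this way and 16.2% lower. That filter averages the germinal centre and naive means. Ezh2, Dnmt1 and Uhrf1, with naive means of 5.16, 8.38 and 5.73 CPM, passed it only through their germinal centre level, which favours the direction counted. Ezh2, Suz12, Eed, Dnmt1 and Uhrf1 also separated when each library was scaled to its reads outside immunoglobulin genes, where 16.8% of genes did. The 2 sorts were deposited in tables made separately, so table and cell type cannot be told apart and no test was run between them.

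The de novo methyltransferases did not divide the sorts in this way. Dnmt3a was at 20.5, 33.9, 13.8 and 29.8 CPM in the germinal centre libraries with the knockout label and at 41.0, 73.0 and 46.7 CPM with the wild-type label. Naive B cells held 16.3, 13.9 and 8.15 CPM with the knockout label and 20.6, 13.8 and 9.32 CPM with the wild-type label, so only the labelled wild-type germinal centre libraries lay wholly above naive B cells. In antibody-secreting cells Dnmt3a was at 0.06 to 5.91 CPM, with 1 spleen library under the floor. Dnmt3b was low everywhere: 0 to 8.77 CPM in germinal centre B cells, 0 to 12.0 CPM in naive B cells and 0.21 to 2.67 CPM in antibody-secreting cells, with overlap between all groups next to each other in order of mean.

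The TET genes and the enhancer methyltransferase overlapped between germinal centre and naive B cells. Tet2 was at 42.3, 23.5, 23.7 and 52.8 CPM in the germinal centre libraries labelled knockout, 57.7, 25.7 and 31.6 CPM in those labelled wild type, and 33.1 to 84.4 and 18.7 to 54.3 CPM in naive B cells of the knockout and wild-type labels. These 4 groups overlap, and their means of 33.5 to 55.2 CPM lie within the summed SDs of their neighbours. Tet3 was spread widely, at 54.1, 48.1, 11.5 and 0.05 CPM in the germinal centre libraries with the knockout label and 17.1, 20.7 and 18.96 CPM with the wild-type label, against 18.6 to 36.7 and 0.77 to 18.7 CPM in naive B cells. Replicate 4 of the labelled-knockout group held Tet3 below the floor of 3 reads.

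Kmt2d ran the other way in its means, with overlap. It was at 20.5, 20.6, 32.6 and 23.5 CPM in the germinal centre libraries with the knockout label and 24.8, 13.7 and 20.5 CPM with the wild-type label. Naive B cells held 61.9, 40.8 and 30.3 CPM with the knockout label and 58.6, 50.8 and 42.4 CPM with the wild-type label. The germinal centre mean was 0.47 of the naive mean, and 1 labelled-knockout germinal centre library (32.6 CPM) exceeded 1 naive library (30.3 CPM).

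Set per kb of exon, which allows genes to be ranked against each other, the order within germinal centre B cells labelled wild type was Eed at 59.4 ± 16.2 (SD, n = 3), Suz12 at 20.5 ± 4.86, Ezh2 at 20.4 ± 5.11, Uhrf1 at 13.7 ± 3.43 and Dnmt1 at 8.65 ± 0.704 CPM per kb. Dnmt3a followed at 3.22 ± 1.03, Tet2 at 2.27 ± 1.01, Tet3 at 1.13 ± 0.108, Kmt2d at 0.986 ± 0.281 and Dnmt3b at 0.842 ± 0.858 CPM per kb. In naive B cells labelled wild type Eed (5.92 ± 1.10) and Suz12 (5.50 ± 1.66) still led, but Kmt2d (2.54 ± 0.406) and Tet2 (1.98 ± 1.10) came next and Ezh2 stood at 0.98 ± 0.063 CPM per kb. Ezh2 was thus level with Suz12 in germinal centre B cells and well under it in naive B cells. Lengths are unions of GENCODE M21 exons, which may not be the authors' annotation.

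The 2 catalytic subunits of PRC2 exchanged rank between the sorts. Ezh1, the paralogue of Ezh2 found in resting cells and chosen for mention after its values were seen, was at 18.8, 7.82, 11.8 and 9.04 CPM in the germinal centre libraries with the knockout label and 31.5, 13.4 and 22.6 CPM with the wild-type label, but at 37.8 to 46.4 and 24.0 to 72.2 CPM in naive B cells. Per kb, Ezh2 exceeded Ezh1 in all 7 germinal centre libraries, by 10.0, 16.3, 16.8 and 29.9 times with the knockout label and by 5.996, 8.43 and 6.82 times with the wild-type label. In the 6 naive libraries the ratio was 0.058 to 0.326. It was 0.028 to 0.427 in splenic antibody-secreting cells and 0.29, 0.217 and 1.85 in those of bone marrow, so 1 of the 12 other libraries had more Ezh2 than Ezh1.

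**Figure D2:**
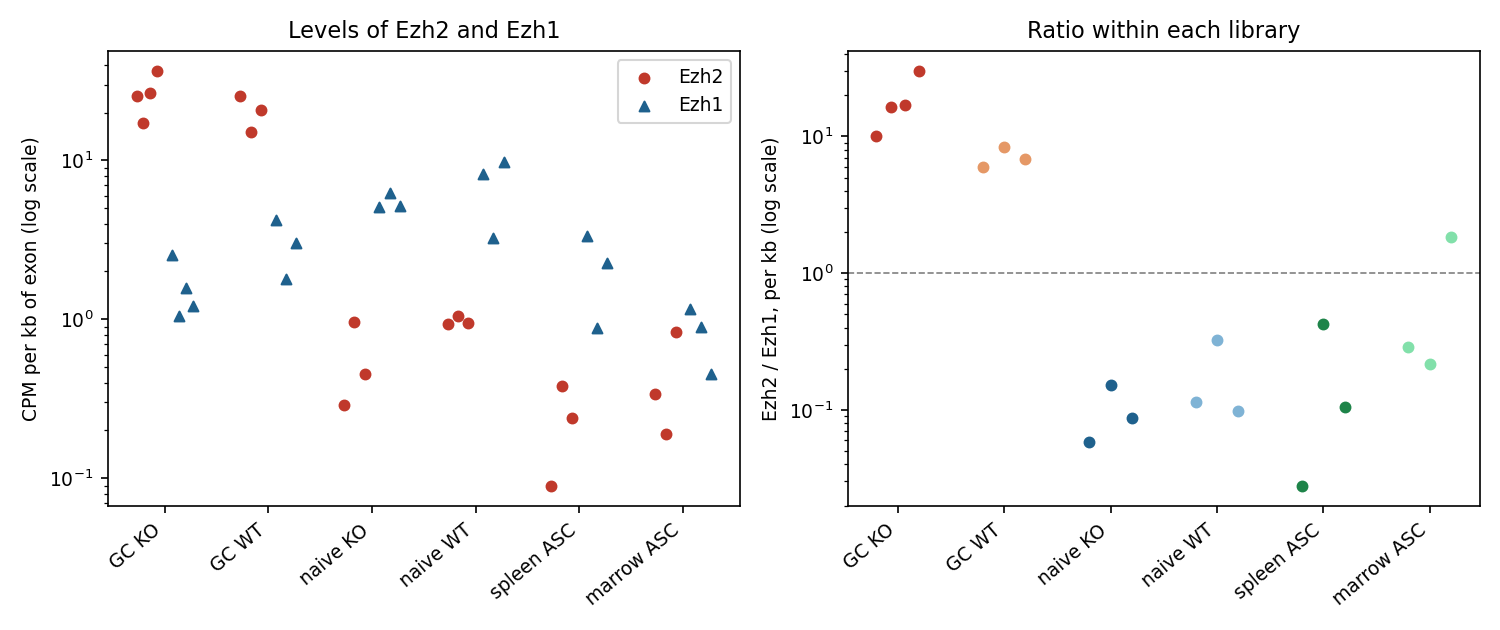
Left, CPM per kb of exon of Ezh2 (circles) and Ezh1 (triangles) in each library, log scale, by group. Right, the ratio of the 2 in each library, with a dashed line at 1: all 7 germinal centre libraries lie between 5.996 and 29.9, and the 6 naive libraries between 0.058 and 0.326.

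Set against RNA of dividing cells, the place of Ezh2 depended on the list used. A sum over 30 genes of the G1/S transition was 5758 to 7765 CPM under the knockout label and 4886 to 5974 CPM under the wild-type label in germinal centre B cells, and 1037 to 1117 CPM in naive B cells. Per 1000 CPM of that sum, Ezh2 was at 25.9 ± 5.03 (SD, n = 4) and 25.05 ± 8.84 (n = 3) CPM in the germinal centre groups and at 3.45 ± 2.08 and 6.23 ± 0.27 CPM (n = 3 each) in the naive groups, with no overlap. Eed kept a smaller gap on this scale, at 26.6 to 55.2 CPM against 18.7 to 33.0 CPM, which overlap. Suz12 ran lower in germinal centre B cells, at 12.5 to 27.3 CPM against 18.8 to 56.0 CPM, with overlap, and Dnmt1 and Uhrf1 overlapped between the sorts. A sum over 30 genes of G2 and mitosis was 3071 to 5537 CPM in germinal centre B cells and 84.6 to 180.6 CPM in naive B cells. Per 1000 CPM of that sum Ezh2 overlapped, at 26.1 to 55.2 CPM in germinal centre and 18.4 to 74.8 CPM in naive B cells. Suz12 (19.6 to 42.1 against 185 to 549 CPM), Eed (40.2 to 87.8 against 117 to 306.5 CPM) and Uhrf1 (1.74 to 18.8 against 20.4 to 71.7 CPM) were lower in germinal centre B cells on this second scale, and Dnmt1 overlapped. The naive G2/M sums are small, with 2 to 12 of the 30 genes at 0 in a library. On either scale a gene that rises less than the sum comes out lower. The share over all genes was not computed on these scales, so nothing is read from these directions.

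Among 7299 named genes listed in all 4 tables whose 6 group means averaged 10 CPM or more, those whose 6 group means on the log2(CPM + 1) scale, shared by 4 tables normalized separately, lay nearest to those of Ezh2 after centring were Hells, Mrps18c, Kif15, Prim1 and Sgo2a, at root mean square differences of 0.312 to 0.385. Hells is a chromatin remodeller needed for DNA methylation, and Prim1 is a subunit of DNA primase. For Uhrf1 they were Timeless, Stau2, Dsn1, Psat1 and Haus5 (0.232 to 0.319), and for Tet2 Trappc4, Tmem170b, Edc4, Prrc2b and Picalm (0.118 to 0.173).

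Partners of the 10 genes were counted in the same way, beside 15.8% higher and 16.2% lower of the 8870 genes past the filter. The lists were counted whole, so the gene sets are not alike. Past the filter were 6 of 9 PRC2 genes, 13 of 15 DNA methylation genes, 14 of 20 PRC1 genes, 10 of 12 H3K4 genes and 4 of 5 genes opposing Polycomb. Hells, with a naive mean of 6.36 CPM, passed it only through its germinal centre level. Of 9 other PRC2 genes, 3 were higher in all germinal centre libraries than in all naive ones: Rbbp7 (480 to 792 against 98.2 to 122 CPM) and Rbbp4 (186 to 297 against 128 to 183 CPM), histone-binding subunits, and Mtf2 (134 to 595 against 37.9 to 63.4 CPM), which guides PRC2 to CpG islands. Of 15 listed genes that act with DNA methylation, 5 were higher and 1 lower. The PCNA-associated factor Pclaf, at 355.5 to 910 against 5.18 to 17.0 CPM, and Hells, at 173 to 289 against 1.33 to 11.8 CPM, differed by 47.8 and 37.4 times in their means. Of 20 genes of Polycomb repressive complex 1 (PRC1), 2 were higher, both with a mean under 10 CPM, and 1 lower, and of 12 H3K4 methyltransferase genes 1 was higher, Dpy30 (70.1 to 151 against 29.6 to 48.2 CPM), and 1 lower. Of 5 genes that oppose Polycomb 1 was lower, Kdm6b, named after its values were seen. The counts for PRC1, the H3K4 genes and the genes opposing Polycomb are near or below the shares over all genes. For scale, 26 of the 30 G1/S genes and 29 of 30 G2/M genes were higher.

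Antibody-secreting cells came out low for every one of the 10 genes in CPM, but 61.5% to 70.2% of their reads fell in immunoglobulin genes, against 3.7% to 4.1% in naive B cells. In CPM the naive mean was 1.59 times (Uhrf1) to 17.6 times (Tet3) the mean of the 6 antibody-secreting libraries. Suz12, Eed, Dnmt3a, Tet2 and Kmt2d were lower in all 6 than in all 6 naive libraries, 5 of 10 against 78% of 7607 genes, and none was higher (3.77% of genes). Of the 4 of the 10 genes that reached a mean of 10 CPM in these libraries all 4 were lower. That filter averages the naive and antibody-secreting means. These 4 genes passed it through their naive means (26.4 to 47.5 CPM), with antibody-secreting means of 4.06 to 9.63 CPM. Their count was thus largely set by the filter. Scaled to reads outside immunoglobulin genes, a scale added after the data were seen, none of the 10 separated in either direction, against 34% of genes lower and 8.49% higher. On that scale the naive mean exceeded the antibody-secreting mean 2.61 times for Tet2, 2.36 times for Eed, 2.25 times for Kmt2d and 5.89 times for Tet3, and fell short of it for Ezh2 (0.80), Dnmt1 (0.80) and Uhrf1 (0.57). For those 3 genes the direction therefore depends on the scale. The antibody-secreting libraries are all labelled wild type, while the naive mean pools both labels. Against the 3 naive libraries labelled wild type alone, added after the data were seen, the ratio in CPM was 1.45 (Uhrf1) to 10.3 (Tet3). Outside immunoglobulin genes it was then 1.01 for Ezh2, 1.00 for Suz12, 0.77 for Dnmt1, 0.52 for Uhrf1 and 0.75 for Dnmt3b, which was at 1.34 with both labels. In that comparison Suz12, Eed, Dnmt3a, Tet2, Kmt2d and Ezh2 were lower in antibody-secreting cells without overlap in CPM, and only Kmt2d outside immunoglobulin genes. The share over all genes was not computed for 3 against 6 libraries, so nothing is read from how many of the 10 separated there. For each of the 10 genes the spleen and bone marrow libraries overlapped.

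**Figure D3:**
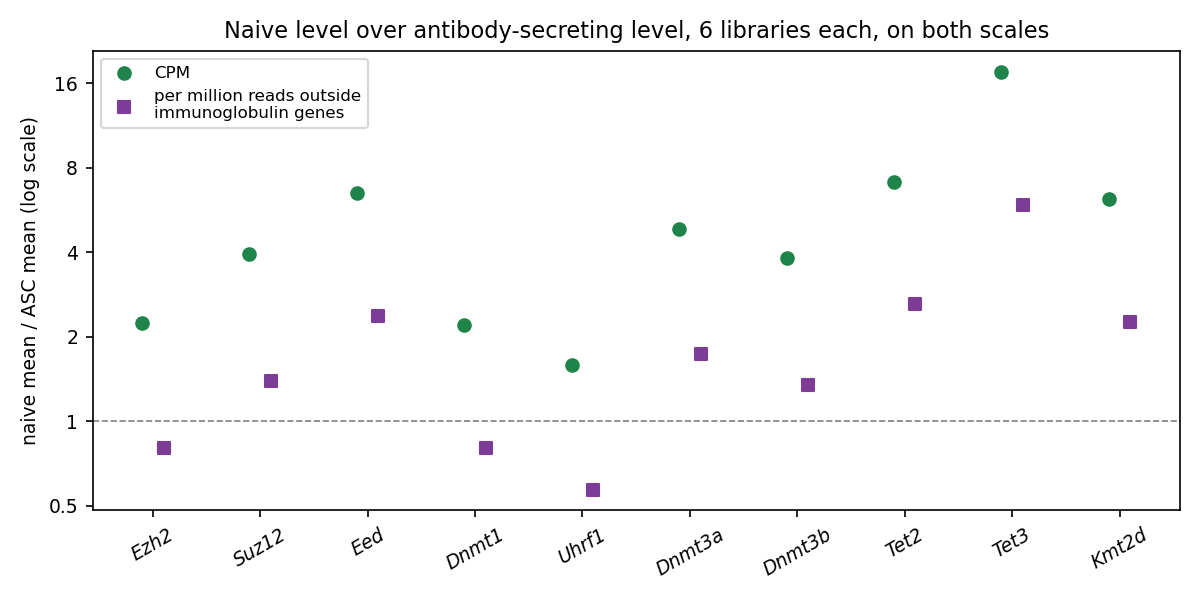
Mean of the 6 naive libraries over the mean of the 6 antibody-secreting libraries for each gene, on a log scale, in CPM (circles) and scaled to reads outside immunoglobulin genes (squares). Every circle lies above 1, while the squares of Ezh2 (0.80), Dnmt1 (0.80) and Uhrf1 (0.57) lie below it.

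The study's genotype labels were compared within germinal centre B cells with limma on log2(CPM + 1). No difference among the 9 of the 10 genes that passed the filter of a mean of 10 CPM (Dnmt3b did not) reached an adjusted p under 0.05, while 1162 of 8522 genes (13.6%) did, 8.54% higher and 5.09% lower with the knockout label. At an unadjusted p under 0.05 there was 1 of 9, against 28.2% of genes. The median log2 difference of the 9 was 0.22, beside 0.02 over all genes tested.

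The exception at the unadjusted level was Dnmt3a, the only one of the 9 whose libraries did not overlap (27.4% of all genes did not, 11.7% being lower). Its 4 labelled-knockout values of 13.8 to 33.9 CPM lay below the 3 labelled wild-type values of 41.0 to 73.0 CPM. The means were 24.5 ± 9.11 (SD, n = 4) and 53.5 ± 17.1 CPM (n = 3), the log2 difference was −1.13 (SE 0.44, 95% interval −2.12 to −0.14) and limma's adjusted p was 0.127. Over the alternatives tried the adjusted p ran from 0.0666 to 0.385.

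For PRC2 the intervals were narrower. Ezh2 differed by 0.35 (95% interval −0.29 to 0.98, adjusted p = 0.463), Eed by 0.22 (−0.26 to 0.69, adjusted p = 0.541) and Suz12 by 0.25 (−0.44 to 0.93, adjusted p = 0.646). The upper limits of all 3 lay under 1, which is a doubling on this scale, and smaller differences were not resolved. The intervals of Uhrf1 (−0.90, −2.34 to 0.54), Tet2 (−0.11, −1.14 to 0.93), Kmt2d (0.31, −0.73 to 1.34) and Tet3 (−0.53, −3.40 to 2.33) were wider, with adjusted p from 0.399 to 0.910.

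Dnmt1 turned on a single library. With all libraries it differed by 0.36 (95% interval −1.10 to 1.81, limma adjusted p = 0.760). Replicate 2 of the labelled-knockout group was at 18.9 CPM, below the 58.2 to 68.4 CPM of the labelled wild-type libraries, and the other 3 were above them at 122 to 144 CPM. Without that replicate the difference was 1.04 (adjusted p = 0.0172). In that replicate Ezh2 (114 CPM) and Suz12 (89.0 CPM) were the lowest of their group and Dnmt3a (33.9 CPM) the highest. It also had the highest T cell marker sum of its group (3526 against 1746 to 1895 CPM) and the lowest G2/M sum (3395 against 4809 to 5537 CPM), whose part was not tested.

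**Figure D4:**
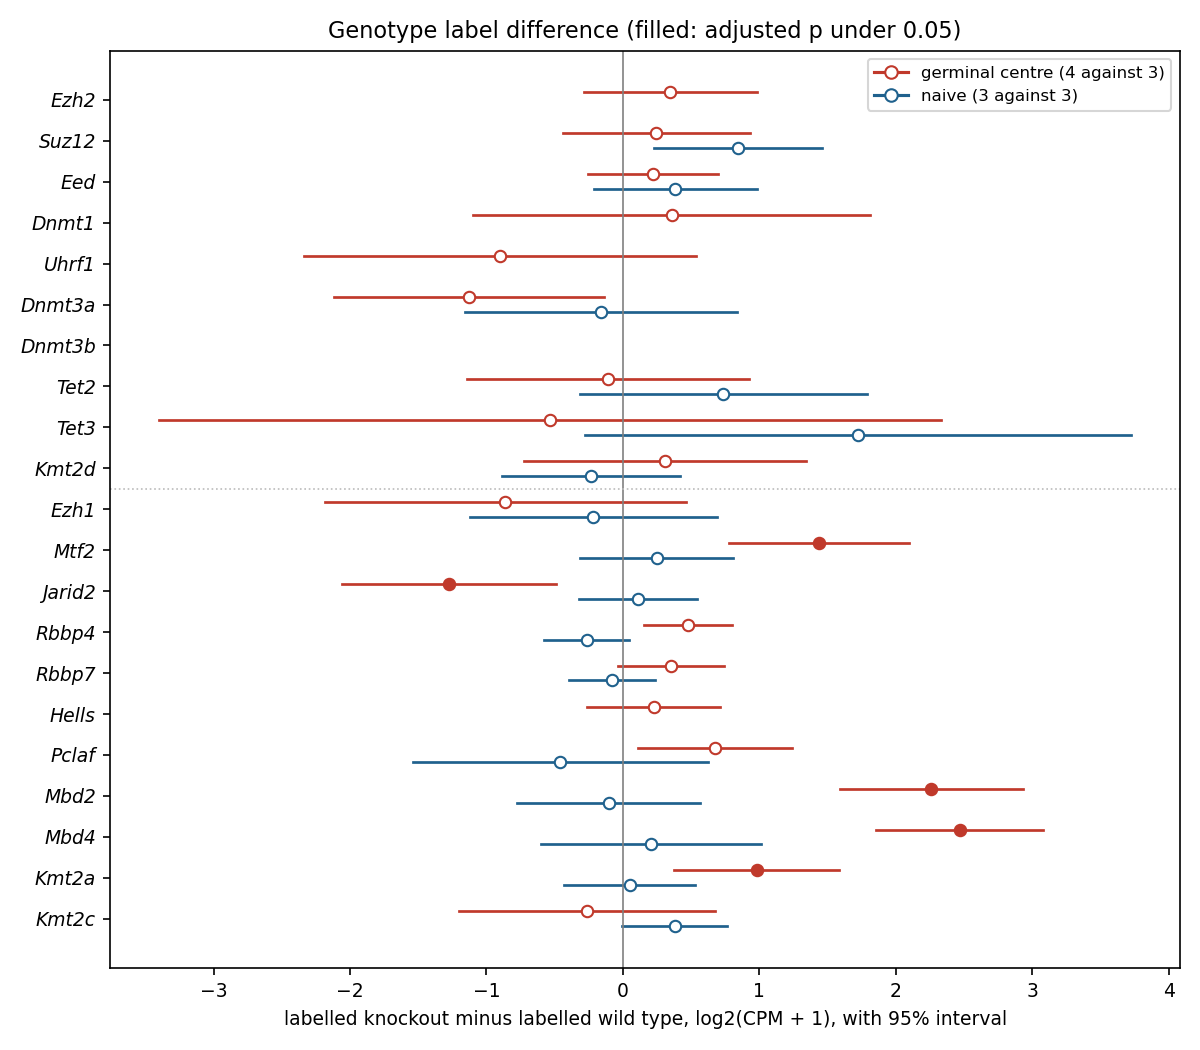
Difference between genotype labels, labelled knockout minus labelled wild type, on the log2(CPM + 1) scale with its 95% interval from limma, in germinal centre (red, 4 against 3) and naive B cells (blue, 3 against 3); genes under the filter have no point and filled points have an adjusted p under 0.05. The 10 genes are above the dotted line, none filled, and the filled points below it are Mtf2, Jarid2, Mbd2, Mbd4 and Kmt2a in germinal centre B cells.

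Of 7 other PRC2 genes tested, 2 accessory subunits were called, in opposite directions, and no core subunit was. Beside them, 13.6% of all genes were called, 8.54% higher and 5.09% lower. With 7 genes, the count is not read as a difference between core and accessory subunits. Mtf2 rose with the knockout label: it was at 431, 254, 595 and 578 CPM against 177, 178 and 134 CPM, with no overlap and a log2 difference of 1.44 (SE 0.29, limma adjusted p = 0.0122). Jarid2, a subunit that recruits PRC2 and can stimulate it, fell: it was at 20.5, 25.4, 41.2 and 24.0 CPM against 64.1, 69.1 and 65.3 CPM, with a log2 difference of −1.27 (SE 0.35, adjusted p = 0.0419). Rbbp4 (0.48, adjusted p = 0.0583) and Rbbp7 (0.35, adjusted p = 0.214) were the 2 most abundant of the 5 tested that were not called, and Ezh1 differed by −0.86 (adjusted p = 0.380). Mtf2 lost its call without labelled wild-type replicate 3 (adjusted p = 0.0574). Jarid2 lost it without any labelled wild-type library or without labelled-knockout replicate 1, 2 or 4 (adjusted p 0.063 to 0.152), with the same direction each time. Of the 7 tested PRC2 partners the median difference was 0.35.

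Of 13 tested genes that act with DNA methylation, 2 rose with the knockout label and none fell, beside 13.6% of all genes called and 8.54% higher. Mbd4, a glycosylase that removes thymine or uracil mispaired at CpG sites, was at 216, 176, 277.5 and 247 CPM against 46.4, 27.5 and 49.99 CPM, with a log2 difference of 2.47 (SE 0.27, adjusted p = 0.000772). Mbd2, a reader of methylated CpG in the NuRD corepressor, was at 143, 166, 176 and 205 CPM against 23.5, 34.2 and 52.6 CPM, a difference of 2.26 (SE 0.30, adjusted p = 0.00174). Both kept their calls under all 15 alternatives, at adjusted p up to 0.0139 and 0.0101. For Mbd4 the labelled wild-type libraries overlapped the naive range (34.4 to 78.4 CPM), and the labelled-knockout libraries lay above it. Pclaf (0.68, adjusted p = 0.111) and Hells (0.23, adjusted p = 0.543), the most abundant that were not called, showed smaller differences, and the median of the 13 was 0.49. The T cell marker sums given above (1746 to 3526 against 115 to 201 CPM) moved with the same labels as Mtf2, Mbd2 and Mbd4, and their part was not tested.

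None of 14 tested PRC1 genes and none of 4 genes that oppose Polycomb was called, beside 13.6% of all genes. At an unadjusted p under 0.05 by limma there were 1 and 0, beside 28.2% of all genes, and the medians were −0.22 and −0.02. The 2 most abundant tested in PRC1 were Rnf2, its ubiquitin ligase (−0.73, adjusted p = 0.394), and Kdm2b, which tethers it to CpG islands (−1.23, adjusted p = 0.575). Among the genes that oppose Polycomb they were Asxl2 (0.73, adjusted p = 0.266) and the X-linked histone demethylase Kdm6a (0.95, adjusted p = 0.205). Kdm6a was lowest, at 15.7 CPM, in labelled wild-type replicate 3, the library with Y-linked transcripts, and at 35.4 to 91.1 CPM in the other 6. Of 10 tested genes of H3K4 methyltransferase complexes, whose median was 0.09, 1 was called, Kmt2a, which is near the 13.6% of all genes. It was at 104, 117, 190 and 115 CPM against 70.1, 71.8 and 52.4 CPM, a difference of 0.98 (SE 0.27, adjusted p = 0.0417). That call was lost in 11 of 15 alternatives, leaving out any library other than labelled-knockout replicate 1 among them (adjusted p 0.0588 to 0.143). Kmt2c, the closest relative of Kmt2d, differed by −0.26 (adjusted p = 0.726) and Dpy30 by 0.39 (adjusted p = 0.388).

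Of 4 genes known as targets that EZH2 represses in germinal centre B cells, 3 were tested and all 3 fell with the knockout label (median −4.27), beside 5.09% of all genes. The list was chosen with earlier results of these data known. Cdkn1a and Prdm1, with means of 4.49 and 7.09 CPM under the knockout label, passed the filter of 10 CPM only through the wild-type label. That favours the direction counted, so the count is not read against the share over all genes. Irf4, at a mean of 26.7 CPM under the knockout label, was above 10 CPM in both groups. Cdkn1a, an inhibitor of cyclin-dependent kinases, was at 9.03, 8.93, 0 and 0 CPM against 578, 587 and 595 CPM, with a log2 difference of −7.54 (SE 0.91, limma adjusted p = 0.00127). Irf4 was at 13.7 to 46.5 against 118 to 180 CPM (−2.51, SE 0.43, adjusted p = 0.0057), and Prdm1, the regulator of plasma cell fate, at 6.84, 20.7, 0 and 0.79 against 102, 87.8 and 56.8 CPM (−4.27, SE 1.04, adjusted p = 0.0261). Prdm1 lost its call without any of the labelled wild-type libraries (adjusted p 0.0757 to 0.109). Cdkn2a was at or under 6.54 CPM in every library and was not tested. Of 10 antibody-secreting cell markers, which include Prdm1 and Irf4, 5 fell, beside 5.09% of all genes. The sums of the 10 overlapped, at 4217 to 12262 CPM under the knockout label and 7467 to 11761 CPM under the wild-type label. The part of such cells was not tested. Ezh2 overlapped between the same groups, at 114 to 242 and 101 to 169 CPM. Bcl6 did not, at 26.3 to 45.5 CPM under the knockout label and 0.41 to 1.62 CPM under the wild-type label, and its part was not tested. Naive B cells, with Ezh2 at 1.95 to 7.03 CPM, held Cdkn1a at 0 to 5.86 CPM, Prdm1 at 0 to 7.80 CPM and Irf4 at 41.8 to 85.3 CPM. The part of Ezh2 in these levels was not tested.

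**Figure D5:**
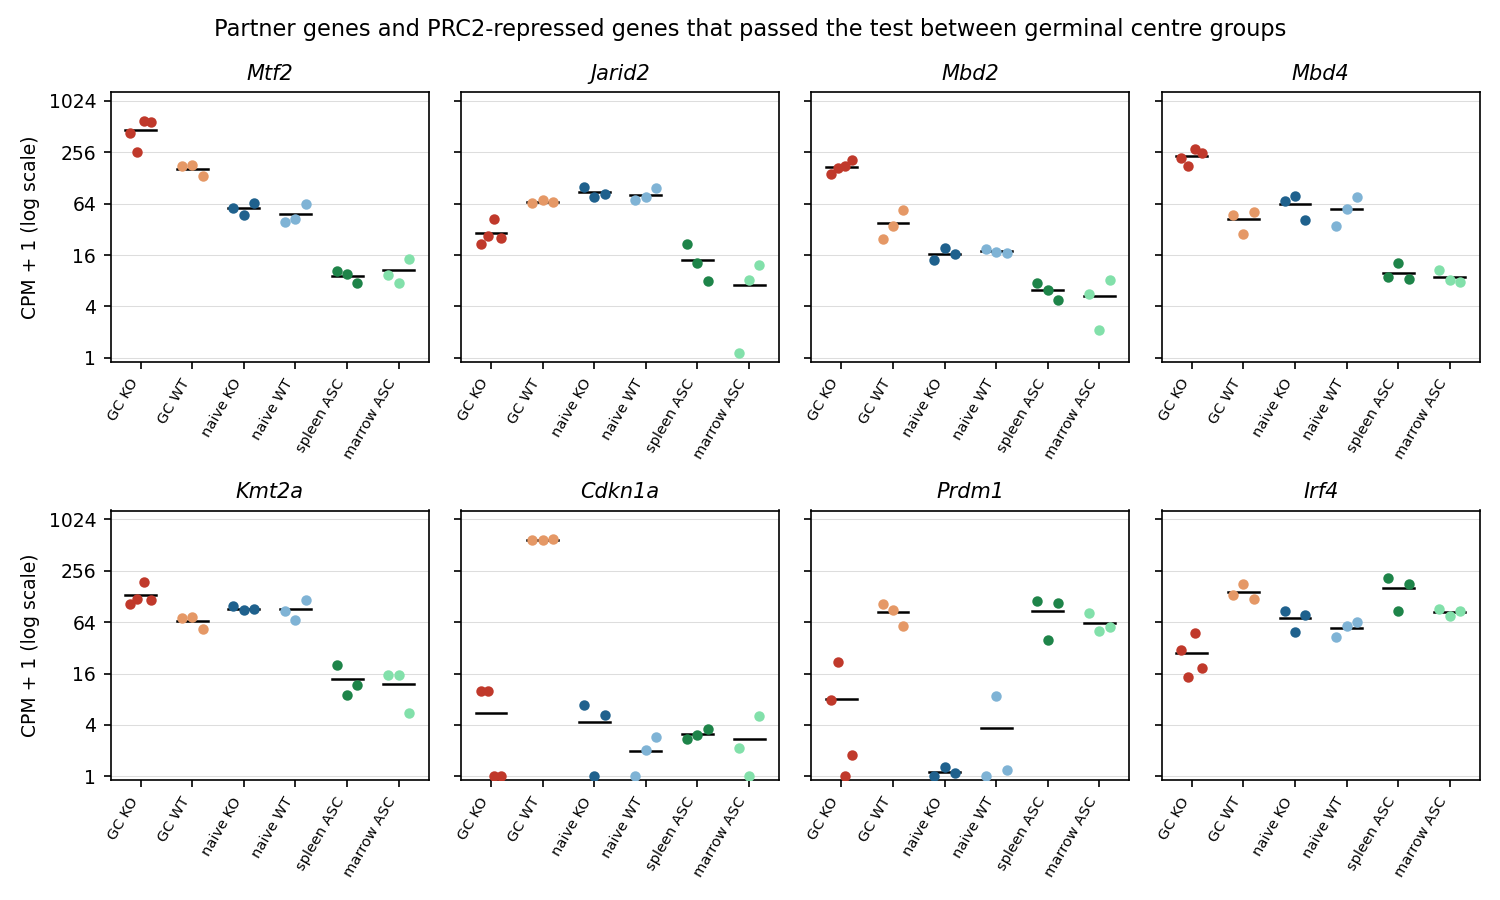
Levels of 5 partner genes and 3 PRC2-repressed genes called between the germinal centre groups, in each of the 19 libraries, as CPM + 1 on a log scale: points are libraries and bars are group means. Mtf2, Mbd2, Mbd4 and Kmt2a lie higher, and Jarid2, Cdkn1a, Prdm1 and Irf4 lower, in the 4 germinal centre libraries labelled knockout than in the 3 labelled wild type.

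Within naive B cells limma called none of 8832 genes (0%), 587 (6.65%) having an unadjusted p under 0.05. Of the 6 members of the 10 that passed the filter, 1 did: Suz12, at 58.3, 43.8 and 44.0 CPM with the knockout label and 36.3, 20.2 and 25.1 CPM with the wild-type label. The groups did not overlap, as for 5.99% of genes in that direction, and the log2 difference was 0.84 (SE 0.27, 95% interval 0.23 to 1.46, adjusted p = 0.739). Eed (0.39, −0.21 to 0.98), Tet2 (0.74, −0.32 to 1.79), Tet3 (1.72, −0.28 to 3.73), Dnmt3a (−0.16, −1.16 to 0.84) and Kmt2d (−0.23, −0.89 to 0.42) overlapped between the labels. Ezh2, Dnmt1, Uhrf1 and Dnmt3b were under the filter, at means of 2.79 to 8.74 CPM in the 2 groups.

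The difference of the genotype differences, germinal centre minus naive, was called by limma for 695 of 8871 genes (7.83%, with 5.02% higher and 2.82% lower) and for 0 of the 9 members tested. None of the 9 had an unadjusted p under 0.05, against 20.8% of genes. Ezh2 came nearest, at 1.11 (95% interval −0.04 to 2.27, adjusted p = 0.259), and Suz12 was at −0.60 (−1.53 to 0.34, adjusted p = 0.492). The Ezh2 value joins 0.35 in germinal centre B cells to −0.77 in naive B cells (filter at 1 CPM). The larger part thus rests on low naive values, 1.95 to 6.39 against 6.28 to 7.03 CPM, under the filter of the naive fit. Of the partners, Mbd2 (2.36, adjusted p = 0.00392), Mbd4 (2.27, adjusted p = 0.00986), Rbbp4 (0.74, adjusted p = 0.0214) and Jarid2 (−1.38, adjusted p = 0.0341) differed between the sorts, while Mtf2 (1.19, adjusted p = 0.113) and Kmt2a (0.93, adjusted p = 0.142) did not pass.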

How the data were processed

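RNA-seq of B lineage cells sorted from spleen and bone marrow was aligned with STAR to mm10, per the submitters' processing notes. How reads were counted, with which annotation and strand setting, was not given in the sources used here. The authors deposited CPM in 4 tables. The germinal centre table had 0.0001 added, which was subtracted, and 19 gene names turned into dates were left out of the others. Of values worth under 1000 reads, 61.5% to 88.9% per library were whole numbers of reads to within 0.02, so read counts were not recovered for all genes and no count test was run.

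The 10 members and all gene lists were chosen with earlier results of these data known. Genes named were the members, in each partner list those called between germinal centre groups and the 2 most abundant not called, the 5 genes nearest to 4 members (those of Kmt2d are not reported here), and fixed genes. In each comparison, genes averaging 10 CPM or more entered limma 3.58.1 (R 4.3.3, moderated variances with a trend) on log2(CPM + 1), a pseudocount of 1 that understates the change of low genes, and Benjamini-Hochberg adjusted p under 0.05 was called. Tests were two-sided and checked on simulated data. Genotype differences were formed within a table, also where 2 of them were compared, and levels across tables are described only. Groups and replicate numbers came from the labels (in germinal centre wild type, the titles number the columns named W2 and W3 as replicates 3 and 2), and depth was read from the CPM of 1 read. Positions came from GENCODE M21 and promoters from RefSeq GRCm38.p6. Figures used Python 3.11.15, pandas 2.3.3 and matplotlib 3.10.9.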

Additional observations from a re-analysis of the deposited data

Results flagged for a closer look

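Among the 36 germinal centre groups of 4 labelled-knockout libraries checked, 1 for each gene named or singled out, 4 had a library set apart from the other 3 by Dixon's criterion, which chance meets in about 1 of 20 groups. The highest library was at 289 CPM for Eed, 118.67 CPM for Rnf2, 190.2 CPM for Kmt2a and 6.54 CPM for Cdkn2a. Eed and Rnf2 were highest in replicate 4, Kmt2a in replicate 3 and Cdkn2a in replicate 2.

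The difference between genotype labels in germinal centre B cells minus that in naive B cells passed limma's threshold for 7 of 32 named genes tested, beside 7.83% of all genes. Some of the 32 were named because they were called between the germinal centre groups, whose libraries also enter this difference. The 2 shares are therefore not comparable. On the log2(CPM + 1) scale the difference between the sorts was 2.36 for Mbd2, 2.27 for Mbd4, 0.74 for Rbbp4 and −1.38 for Jarid2. It was 4.83 for Bcl6, −8.42 for Cdkn1a and −2.85 for Irf4.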

How the results depend on the processing

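The alternatives were pseudocounts of 0.1 and 5, a filter at 1 CPM and none, TMM scaling, array weights, a replicate block and leaving out each library. Of 923 values under an alternative, 857 kept their direction and their side of the threshold, 40 lost a call, 3 gained one, 5 counts moved and 18 changed sign. The 1162 germinal centre calls ran from 603 to 1134 with 1 library left out: 732, 603 and 712 without labelled wild-type replicate 1, 2 and 3. They came to 432 when labelled-knockout replicate 1 (erythroid sum 2978 CPM) and labelled wild-type replicate 3 (Xist at 0 CPM) were both left out, an alternative chosen after seeing the data, in which Suz12 differed by −0.098 (−0.098 to 0.43 over these and single libraries left out) and Mtf2 (adjusted p = 0.113), Jarid2 (0.189), Kmt2a (0.148), Prdm1 (0.11) and Irf4 (0.0503) lost their calls. The number of the 10 genes called ran from 0 to 1, Dnmt1 without labelled-knockout replicate 2. Jarid2 was also lost with a filter at 1 CPM, no filter or the replicate block, Kmt2a with those and TMM scaling, and Prdm1 with a pseudocount of 0.1 or no filter. In germinal centre B cells Tet2 differed by 0.038 with array weights. With the replicate block, which drops labelled-knockout replicate 4 for want of a partner, Tet3 differed by 0.70 and 831 genes were called there, 0 in naive B cells and 653 between sorts, where the Jarid2 difference had an adjusted p of 0.0649. Same-numbered libraries did not deviate together (correlations −0.0471 to 0.0787), so the numbers, taken from the titles, were not taken as pairs. Leaving out 1 library changed the sign of several uncalled differences, with these ranges: in germinal centre B cells Eed −0.031 to 0.36, Tet2 −0.34 to 0.22 and Tet3 −1.20 to 0.70; in naive B cells Dnmt3a −0.42 to 0.11, Kmt2d −0.50 to 0.0025, Ezh1 −0.69 to 0.084, Jarid2 −0.0029 to 0.25, Mbd2 −0.22 to 0.0096, Mbd4 −0.086 to 0.49 and Kmt2a −0.14 to 0.25; between the sorts Dnmt1 −0.41 to 1.13 and Pik3cg −1.42 to 0.016. The between-sort call of Jarid2 was lost without 8 of the 13 libraries (adjusted p 0.0533 to 0.096), while Mtf2 passed there without labelled-knockout germinal centre replicate 2 (0.0148) and Prdm1 with a pseudocount of 5 (0.0454).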
